A study of Mus musculus with 10 samples.

Results

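The genes described here are Hlcs, which has 3 copies in Dp1Rhr mice, and 9 genes at 2 copies that encode its partners in biotin metabolism: the carboxylase subunits Pcx, Pcca, Pccb, Mccc1, Mccc2, Acaca and Acacb, the biotin-recycling enzyme gene Btd and the vitamin transporter gene Slc5a6. The genes were picked by function, with earlier results of these data known. Hlcs was picked with its higher signal in these arrays already known. A probe set, the group of array probes that together report 1 transcript, was accepted for a gene only if its annotation named that gene alone, and the brightest by mean over the 10 arrays stood for the gene. All 10 genes were measured, of 19938 genes in all. Acaca had 2 such probe sets and each of the others had 1.

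Each of the 10 arrays held hippocampal RNA of a single male, taken at 16 weeks of age. Among them, 5 mice carried Dp1Rhr, a tandem duplication of the chromosome 16 segment from Cbr1 to Fam3b on a background that the labels give as C57BL/6N and the study's methods as C57BL/6J, a disagreement not settled here, and the remaining 5 were littermates without any duplication, the control group. These littermates were bred by crossing the Dp5Yah and Dp1Rhr lines and were shared by the models made in that cross, whose other mice were not analysed here. Dp1Rhr is a mouse model of Down syndrome that covers only part of the region homologous to human chromosome 21, and all the genes of the segment are at 3 copies together with Hlcs.

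Biotin is a vitamin that works only when it is bound to a carboxylase. Holocarboxylase synthetase, the product of Hlcs, joins biotin to a lysine of each carboxylase, after which the enzyme can carry carbon dioxide to its substrate. Pyruvate carboxylase makes oxaloacetate for the citric acid cycle and in brain is known mainly from astrocytes, propionyl-CoA carboxylase and methylcrotonyl-CoA carboxylase act in the breakdown of branched-chain amino acids, and the acetyl-CoA carboxylases make malonyl-CoA for fatty acid synthesis and for the control of fatty acid oxidation. Loss of the synthetase or of biotinidase in humans causes multiple carboxylase deficiency, which affects the brain.

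Hlcs lies on chromosome 16 at 94129306 to 94315239 (GRCm38), within the duplicated segment and between Sim2 and Ripply3. RefSeq for GRCm38.p6 gave 2 start sites on the minus strand with sequence in the table used here, and both lie inside the duplication, so the extra copy holds both. The span of the gene ends at 94315239, upstream of both windows below, so a start farther out would have no window here. Because the array had 1 probe set for Hlcs, transcripts from different starts were not measured apart. The 250 bases before each of these 2 starts are shown 5′ to 3′ as start regions carried by every copy, with capitals marking CCAAT or GGGCGG on either strand.
Hlcs start 1, chr16:94313564-94313813: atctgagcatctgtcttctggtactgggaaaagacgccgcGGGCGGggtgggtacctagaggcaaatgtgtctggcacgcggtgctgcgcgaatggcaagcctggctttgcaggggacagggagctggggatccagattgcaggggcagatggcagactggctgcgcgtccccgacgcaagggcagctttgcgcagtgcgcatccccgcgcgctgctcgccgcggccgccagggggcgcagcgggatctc
Hlcs start 2, chr16:94290292-94290541: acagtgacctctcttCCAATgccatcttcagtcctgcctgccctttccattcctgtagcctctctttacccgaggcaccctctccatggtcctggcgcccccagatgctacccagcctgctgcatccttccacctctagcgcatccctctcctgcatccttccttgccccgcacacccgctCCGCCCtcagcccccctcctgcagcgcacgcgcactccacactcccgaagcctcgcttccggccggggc
The first window held 23 CG dinucleotides and the second 13, against a median of 6 over 32851 windows of that length. GGGCGG was found once in each Hlcs window and in 32.7% of all windows, and CCAAT was found once in the second window and in 33.8% of all windows. TATAAA was in neither and in 12.4% of all windows. These matches describe the letters of the windows and were not tied to any measurement.

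The arrays had median log2 signals between 6.77 and 6.83, and every pair of arrays correlated at 0.996 or above. The hippocampal neuron markers were bright on all arrays, with a list mean of 10.8 to 10.9, and the granule cell gene Prox1 lay between 10.1 and 10.5. Control replicates 2 and 3 stood apart in choroid plexus markers. The mean over the 15 choroid plexus genes was 7.07 and 7.29 in these 2 controls, 8.48 to 9.09 in the other 3 controls and 8.69 to 9.47 in Dp1Rhr, and Ttr, which defines that epithelium, was at 9.53 and 9.83 in them and at 13.2 to 13.6 elsewhere. All 15 genes had a positive difference between Dp1Rhr and control and 0 passed the test. An unadjusted p below 0.05 was found for 12 of the 15, against 15.0% of all genes. Habenula markers were highest in Dp1Rhr replicates 2 and 4, with list means of 9.03 and 9.25 against 7.73 to 8.34 in control. Dp1Rhr replicate 3, at 8.53, also lay above every control, while replicates 1 and 5 were at 7.84 and 7.94. All 7 habenula markers had a positive difference, 5 were below an unadjusted p of 0.05 and 0 passed. Of the oligodendrocyte markers, 9 of 9 had a positive difference, 5 were below an unadjusted p of 0.05 and 0 passed. Their list means were 11.02 to 11.17 in control and 11.14 to 11.32 in Dp1Rhr. Thalamus markers were at 8.92 to 9.42 in control and 8.66 to 8.89 in Dp1Rhr, without overlap of the list means, and 0 of 6 passed. The differences of the thalamus markers were mixed, from -0.86 for Tcf7l2 to 0.056 for Lef1. Of the 6, 2 were above 0 and 3 had an unadjusted p below 0.05. The cell-type markers that passed were the astrocyte gene Fgfr3, which fell, and Alas2, a heme synthesis gene of red blood cells and the only gene measured of its list, which rose by 0.67 (limma adjusted p = 0.0304) from 7.29 to 7.73 in control to 7.80 to 8.38 in Dp1Rhr. In whole tissue, more cells of a type and more RNA per cell cannot be told apart.

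The first comparison asked how far the third copy raised the signal of the ligase gene itself. Because Hlcs was chosen with this difference known, its values are a description and no test is given. On the log2 scale Hlcs read 7.60, 7.58, 7.48, 7.43 and 7.50 in control replicates 1 to 5 and 8.03, 8.03, 7.80, 8.06 and 7.94 in Dp1Rhr replicates 1 to 5. The groups did not overlap, and Dp1Rhr replicate 3 was the lowest of its group. Control averaged 7.52 ± 0.07 (SD, n = 5) and Dp1Rhr averaged 7.97 ± 0.11 (SD, n = 5), a log2 difference of 0.45 ± 0.05 SE or 1.37-fold. A ratio of 3 over 2 is 0.585 on this scale. Whether a ratio of array signals equals a ratio of transcripts was not tested.

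Among the 31 measured genes of the duplicated segment, Hlcs had the fourth highest log2 difference, rank 4 of 31, where the median was 0.21. Psmg1, which encodes a chaperone of proteasome assembly, was the highest with 0.56 and an interval of 0.34 to 0.77, and the integrin subunit gene Itgb2l was the lowest with -0.035. The intervals of Vps26c (0.51), Get1 (0.50) and Morc3 (0.41), the genes next to Hlcs in this order, overlapped that of Hlcs. Its neighbours along the chromosome had smaller differences, -0.023 for the transcription factor gene Sim2 and 0.12 for Ripply3. Both neighbours were dim, at the 25.4th and 33.2nd percentile of mean signal, against the 52.4th for Hlcs.

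**Figure D1:**
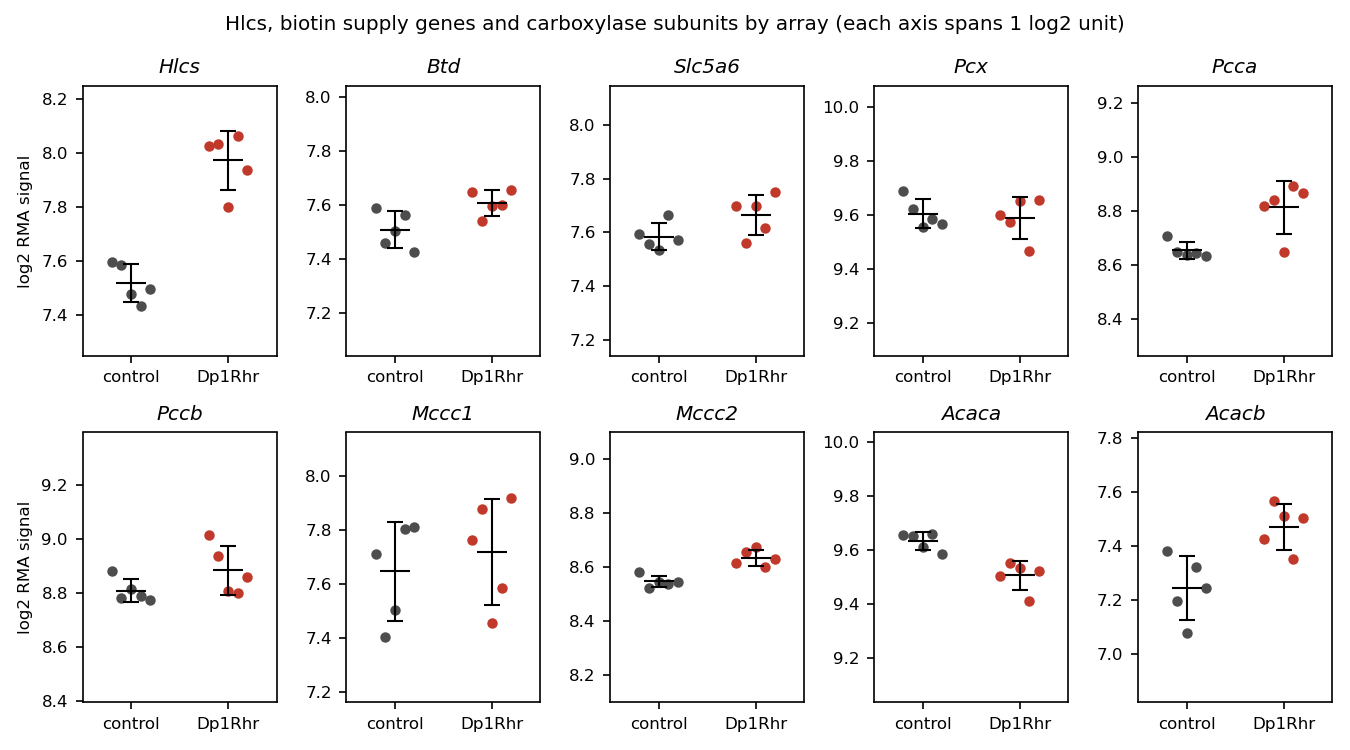
Log2 RMA signal of the 10 genes on each array, with control in grey and Dp1Rhr in red, and the mean and SD of 5 arrays in black. Each vertical axis spans 1 log2 unit at its own position, and only Hlcs, Mccc2 and Acaca have groups that do not overlap.

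The second comparison asked whether the 2-copy partners of Hlcs also differed. Of these 9 genes, 0 rose and 0 fell in limma at an adjusted p of 0.05 over all genes, a threshold that 160 of the 19938 genes (0.802%) passed, 0.627% of all genes upwards and 0.176% downwards. At an unadjusted p of 0.05, 5 of the 9 were below it, 4 with a higher and 1 with a lower mean in Dp1Rhr, as were 15.0% of all genes. FCROS, the rank method used by the study and written anew here, called 2 of the 9, Pcca and Acacb, both higher, against 5.39% of all genes. The groups did not overlap for 2 of the 9, Mccc2 and Acaca, against 3.52% of all genes. Mccc2 was the 1 gene with all Dp1Rhr arrays higher, as in 1.82% of all genes, and Acaca the 1 gene with all lower, as in 1.70%. The log2 difference was above 0 for 7 of the 9, with a median of 0.081 against -7.57e-05 over all genes.

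Acaca and Acacb, which encode the 2 acetyl-CoA carboxylases, had differences of opposite sign. Acaca, whose enzyme makes malonyl-CoA in the cytosol for fatty acid synthesis, read 9.66, 9.65, 9.61, 9.66 and 9.59 in control replicates 1 to 5 and 9.50, 9.55, 9.53, 9.41 and 9.52 in Dp1Rhr replicates 1 to 5. Every Dp1Rhr array lay below every control array, although the gap was only from 9.55 to 9.59. Control averaged 9.63 ± 0.03 (SD, n = 5) and Dp1Rhr averaged 9.51 ± 0.05 (SD, n = 5), a log2 difference of -0.13 ± 0.03 SE that did not pass (limma adjusted p = 0.0896). The dimmer probe set of Acaca had -0.096 ± 0.058 SE, with 8.74 to 8.98 in control and 8.69 to 8.97 in Dp1Rhr, so its groups overlapped.

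Acacb, whose enzyme sits at the mitochondrial outer membrane and there makes the malonyl-CoA that restrains fatty acid uptake, had a signal near the middle of the array, at the 47.0th percentile of all genes. It read 7.38, 7.20, 7.08, 7.32 and 7.24 in control replicates 1 to 5 and 7.43, 7.57, 7.51, 7.35 and 7.50 in Dp1Rhr replicates 1 to 5. Only Dp1Rhr replicate 4 lay below a control, replicate 1. The log2 difference of 0.23 ± 0.06 SE, 1.17-fold, was the largest among the 9 genes and did not pass (limma adjusted p = 0.0901). Control replicates 2 and 3, low for choroid plexus, held the lowest Acacb values. The difference was 0.15 without these 2 arrays and 0.11 in a model that held a choroid plexus score, and the part of that tissue in the difference was not tested.

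**Figure D2:**
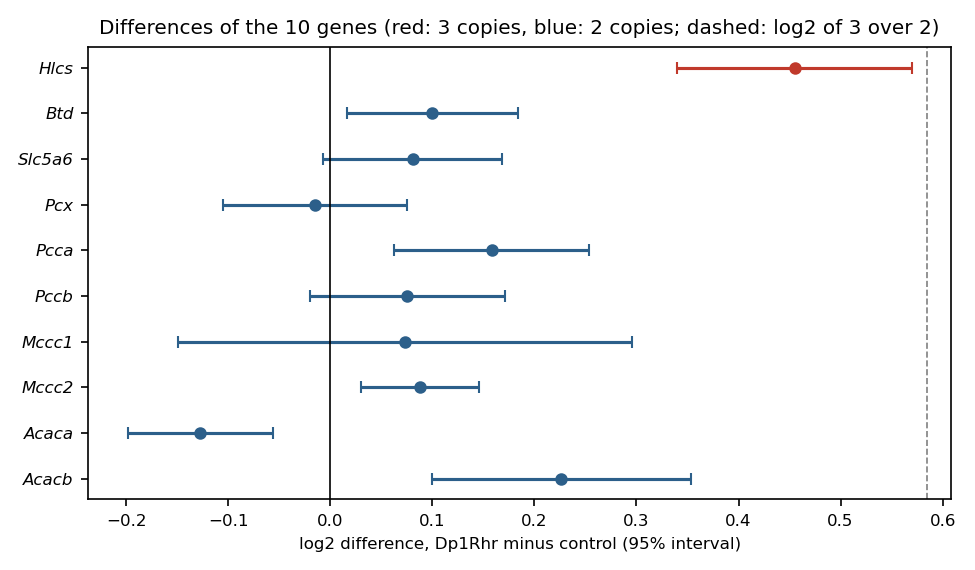
Difference in log2 signal, Dp1Rhr minus control with 5 arrays each, of the 10 genes with 95% intervals from limma, with 3-copy Hlcs in red, 2-copy genes in blue and the log2 of 3 over 2 dashed at 0.585. Hlcs, chosen with its difference known, lies farthest right at 0.45, and the 9 others lie between -0.13 and 0.23.

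Propionyl-CoA carboxylase is built from the biotin-carrying subunit of Pcca and the subunit of Pccb that holds the transferase site. Pcca read 8.71, 8.65, 8.64, 8.65 and 8.63 in control replicates 1 to 5 and 8.82, 8.84, 8.65, 8.89 and 8.87 in Dp1Rhr replicates 1 to 5. In Dp1Rhr, replicate 3 stood at the level of the controls while the other 4 mice lay above them all, and replicate 3 was also the Dp1Rhr mouse with the lowest Hlcs. A model that weights arrays by how closely they follow their group gave replicate 3 the lowest weight of all arrays. That weight was 0.57, against 1.21 to 1.44 for the other Dp1Rhr arrays. The log2 difference was 0.16 ± 0.04 SE, 1.12-fold, and did not pass (limma adjusted p = 0.109). Without Dp1Rhr replicate 3 it was 0.20 and passed (adjusted p = 0.0271), while over its alternatives the adjusted p ran from 0.0271 to 0.382. Pccb ranged from 8.77 to 8.88 in control and from 8.80 to 9.01 in Dp1Rhr, and its difference of 0.076 ± 0.044 SE did not pass (limma adjusted p = 0.467) and was 0.034 in the model with the choroid plexus score.

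Methylcrotonyl-CoA carboxylase, an enzyme of leucine breakdown, also has a biotin-carrying subunit, from Mccc1, and a partner without biotin, from Mccc2. Mccc2 read 8.58, 8.52, 8.54, 8.54 and 8.54 in control replicates 1 to 5 and 8.61, 8.65, 8.67, 8.60 and 8.63 in Dp1Rhr replicates 1 to 5. All Dp1Rhr arrays lay above all controls by a narrow margin, and the difference of 0.088 ± 0.026 SE did not pass (limma adjusted p = 0.134). Mccc1 varied most between mice, from 7.40 to 7.81 in control and from 7.45 to 7.92 in Dp1Rhr, and its difference of 0.073 ± 0.102 SE did not pass (limma adjusted p = 0.822). Control replicates 2 and 3 held the lowest control values of Mccc1, 7.40 and 7.50, and without them the difference was -0.056. Its sign is therefore not settled by these arrays.

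Pcx, the gene of pyruvate carboxylase, had the smallest difference of the 10, -0.015 ± 0.041 SE (limma adjusted p = 0.922), with 9.56 to 9.69 in control and 9.47 to 9.66 in Dp1Rhr. Its 95% interval, -0.11 to 0.075, leaves out differences as large as that of Hlcs. The astrocyte markers had list means of 10.8 to 10.9 in both groups, but single markers went both ways. Of the 10, 6 were below an unadjusted p of 0.05, against 15.0% of all genes. Fgfr3 fell (log2 difference -0.37, limma adjusted p = 0.0471), and Ntsr2 had 0.23 and did not pass (limma adjusted p = 0.164). The part of these markers in the Pcx values was not tested. The supply genes had small positive differences that did not pass. Btd, whose enzyme frees biotin from degraded carboxylases for reuse, ranged from 7.42 to 7.59 in control and from 7.54 to 7.66 in Dp1Rhr, with a log2 difference of 0.10 ± 0.04 SE (limma adjusted p = 0.236). Slc5a6, the cell surface transporter of biotin, pantothenate and lipoate, ranged from 7.54 to 7.66 in control and from 7.56 to 7.75 in Dp1Rhr, with 0.081 ± 0.040 SE (limma adjusted p = 0.380). With the choroid plexus score in the model, the Btd difference was 0.056 and that of Slc5a6 0.039.

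The third comparison set the ligase against its substrates within each array, which cancels any shift of a whole array. The substrate level was the mean of the 5 subunits that carry biotin, from Pcx, Pcca, Mccc1, Acaca and Acacb. It ranged from 8.48 to 8.63 in control and from 8.54 to 8.69 in Dp1Rhr, so the groups overlapped. Hlcs minus this mean was -1.03, -0.921, -1.002, -1.17 and -1.07 in control replicates 1 to 5 and -0.60, -0.65, -0.76, -0.48 and -0.76 in Dp1Rhr replicates 1 to 5. The groups did not overlap, and the difference between them was 0.39 ± 0.07 SE on the log2 scale. Like that of Hlcs, it is a description with no test.

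Taken substrate by substrate, the shift of Hlcs relative to its partner was 0.58 ± 0.07 SE against Acaca, 0.47 ± 0.08 SE against Pcx, 0.38 ± 0.13 SE against Mccc1, 0.30 ± 0.03 SE against Pcca and 0.23 ± 0.09 SE against Acacb. Hlcs was chosen with its higher signal known, and its difference is larger than that of any of these genes. Each shift is therefore positive, and only the order of the shifts, which is that of the substrates' own differences, describes the data. Against the subunits without biotin it was 0.38 ± 0.06 SE for Pccb and 0.37 ± 0.07 SE for Mccc2. Against the supply genes it was 0.35 ± 0.07 SE for Btd and 0.37 ± 0.09 SE for Slc5a6.

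**Figure D3:**
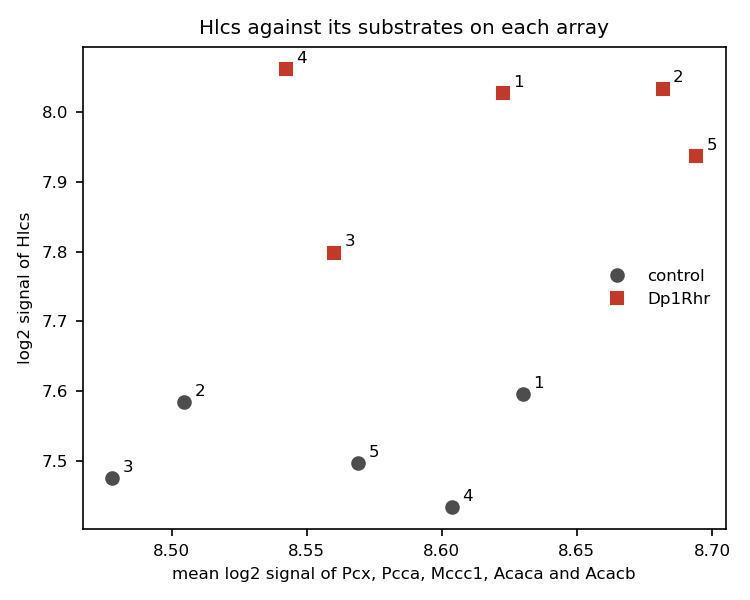
Log2 signal of Hlcs against the mean log2 signal of the 5 biotin-carrying subunits on each array, with circles for control and squares for Dp1Rhr and the replicate number beside each point. The groups share the horizontal range of 8.54 to 8.63 and are apart on the vertical axis, where Dp1Rhr replicate 3 at 7.80 is nearest to control.

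Subunits of 1 enzyme, or the 2 forms of 1 enzyme, were then compared over the mice, in a family of 3 pairs with permutation p-values. For Pcca with Pccb over 10 arrays, Pearson's r was 0.55 (permutation p = 0.121, adjusted 0.310) and Spearman's rho was 0.55 (permutation p = 0.105, adjusted 0.268), and r was 0.94 without Dp1Rhr replicates 4 and 5, the arrays farthest from the median of Pcca. For Mccc1 with Mccc2, r was 0.22 (permutation p = 0.533, adjusted 0.533) and rho 0.31 (permutation p = 0.382, adjusted 0.382), and r was 0.46 without control replicate 2 and Dp1Rhr replicate 3. For Acaca with Acacb, r was -0.43 (permutation p = 0.207, adjusted 0.310) and rho -0.47 (permutation p = 0.179, adjusted 0.268), and r was -0.64 without Dp1Rhr replicate 4 and control replicate 4. None of the 3 pairs passed.

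The sign of the Acaca and Acacb relation turned when the mean of each group was subtracted. Within the groups r was 0.68 (permutation p = 0.0397, adjusted 0.119 over the 3 pairs), while the group means went opposite ways. The permutation exchanged the centred values between groups as well as within them, so the within-group p-values are only approximate. Dp1Rhr replicate 4 was the lowest of its group for both genes, at 9.41 for Acaca and 7.35 for Acacb. This within-group relation did not pass after adjustment either. For Pcca with Pccb the within-group r was 0.28 (permutation p = 0.439), and for Mccc1 with Mccc2 it was 0.066 (permutation p = 0.853). With 5 mice per group, no relation was computed inside a single group.

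The pattern of Hlcs over the 10 arrays was compared with that of every other gene by Pearson's r. The 5 most like it were A230051N06Rik (0.982), Cbr4 (0.958), Smim8 (0.956), Zdhhc4 (0.952) and Gstt1 (0.952), and 0 of the 5 lie in the duplicated segment. Their log2 differences were smaller than that of Hlcs, at 0.11, 0.21, 0.24, 0.088 and 0.23 in that order. Among its 9 partners, Pcca was the most alike, with r of 0.90 and rank 37 of 19937 genes, followed by Mccc2 with 0.77 and rank 527. Acaca was near the other end, with r of -0.84 and rank 19802. All these values hold the difference between the groups as well as the spread within them, share the same arrays, and are given as a description.

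The fourth comparison covered the pathways that lead into and out of the carboxylases, each by a list of genes chosen for function. The lists were drawn up with earlier results of these data known, so their counts are descriptions. Of the genes on these 7 lists, 3 rose and 0 fell in limma: Tcn2, Mmut and Hibch. In the order taken below, the lists held 13, 8, 12, 20, 22, 8 and 9 measured genes. Some genes of the lipoate list are on another list as well. A higher signal past this threshold was seen in 0.627% of all genes. When each of the 10 arrays was left out in turn, Tcn2 lost its call 8 times, Mmut 9 times and Hibch 6 times.

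Propionyl-CoA carboxylase feeds the route from propionate to succinyl-CoA, in which a mutase that needs vitamin B12 does the last step. Of 13 genes listed for this route, its vitamin supply and steps beside it, 2 rose and 0 fell, with a median log2 difference of 0.069. Those steps are methionine synthesis, which also uses vitamin B12, and the use of succinyl-CoA. Of the 13, 4 were below an unadjusted p of 0.05, against 15.0% of all genes. Mmut, the mutase gene itself, read 9.24, 9.12, 9.27, 9.16 and 9.19 in control replicates 1 to 5 and 9.42, 9.56, 9.54, 9.32 and 9.37 in Dp1Rhr replicates 1 to 5. The groups did not overlap, and it rose 1.19-fold (log2 difference 0.25 ± 0.05 SE, limma adjusted p = 0.0494, 0.0402 to 0.196 over its alternatives). Mcee, the epimerase of the step before it, had 0.31 ± 0.09 SE and did not pass (limma adjusted p = 0.126).

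Tcn2, the gene of transcobalamin, which carries vitamin B12 in blood, read 10.46, 10.03, 10.09, 10.52 and 10.24 in control replicates 1 to 5 and 10.81, 10.75, 10.69, 10.56 and 10.74 in Dp1Rhr replicates 1 to 5. It rose 1.36-fold (0.44 ± 0.09 SE, limma adjusted p = 0.0494, 0.0339 to 0.148 over its alternatives). Control replicates 2 and 3, low for choroid plexus, were the lowest for Tcn2 as well. The difference was 0.31 without them and 0.22 with the choroid plexus score in the model, and the part of that tissue was not tested. Mmut was less moved by these settings, at 0.25 and 0.23.

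The breakdown of isoleucine and valine ends in propionyl-CoA. All 8 genes of this list had a positive difference, from 0.11 to 0.25 with a median of 0.15, and 1 rose. Hibch, a hydrolase of valine breakdown, read 7.20, 7.10, 7.21, 7.16 and 7.21 in control replicates 1 to 5 and 7.41, 7.50, 7.32, 7.44 and 7.39 in Dp1Rhr replicates 1 to 5. The lowest Dp1Rhr array lay above the highest control, and the gene rose 1.18-fold (0.23 ± 0.04 SE, limma adjusted p = 0.0291, 0.0199 to 0.153 over its alternatives). The other 7 genes did not pass, among them Aldh6a1, a dehydrogenase further along the valine route, with 0.21 ± 0.05 SE (limma adjusted p = 0.0893). At an unadjusted p of 0.05, 8 of the 8 were below it, against 15.0% of all genes. The first steps of this breakdown are shared with leucine and stand on the leucine list instead, so the 8 genes do not cover the whole route. Of the first-step genes, Bcat1 had 0.041, Bcat2 0.031, Bckdha 0.0043, Bckdhb 0.0080, Dld 0.046 and Dbt 0.13, and none passed.

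**Figure D4:**
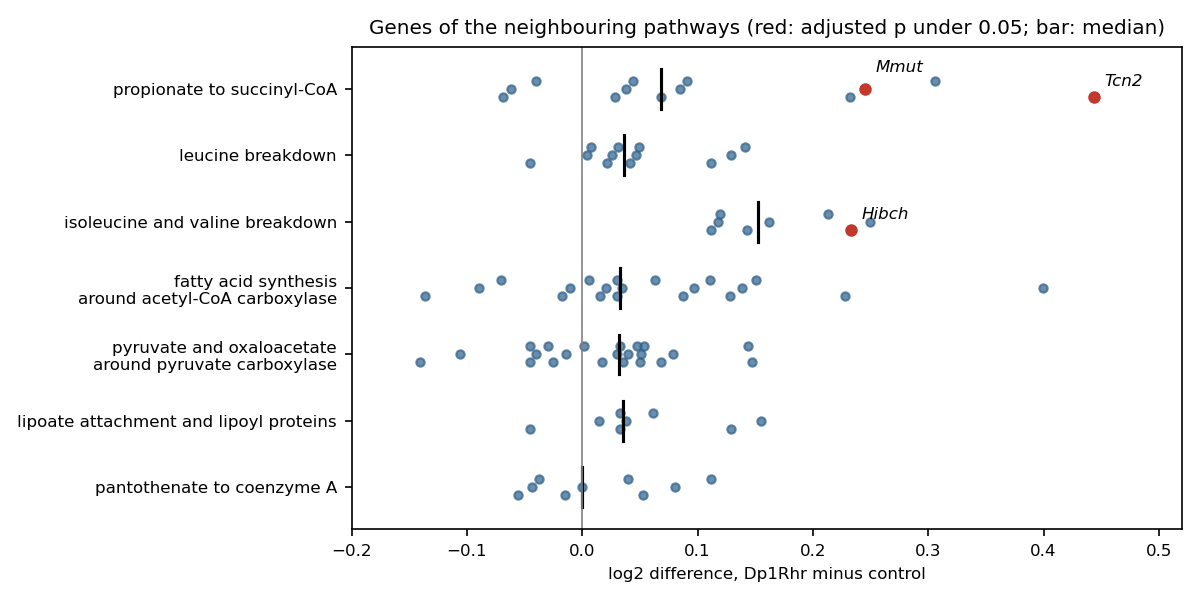
Log2 difference (Dp1Rhr minus control) of each measured gene on the 7 pathway lists, 1 point per gene, with the list median as a black bar and genes past an adjusted p of 0.05 in red. The listed isoleucine and valine genes, which leave out the first steps shared with leucine, all lie between 0.11 and 0.25. The other lists spread around medians of 0.00 to 0.07.

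Leucine breakdown, in which methylcrotonyl-CoA carboxylase acts, had 0 of 12 measured genes past the threshold and a median of 0.036. The amino acid transporter gene Slc7a5 had 0.14 ± 0.04 SE (limma adjusted p = 0.125) and Dbt, a subunit of the branched-chain ketoacid dehydrogenase, 0.13 ± 0.04 SE (limma adjusted p = 0.159). For the genes around the acetyl-CoA carboxylases, 0 of 20 passed and the median was 0.033. Prkab1, a subunit of the AMP-activated kinase that phosphorylates these carboxylases, had 0.23 ± 0.05 SE (limma adjusted p = 0.0526), and the lipogenesis regulator Thrsp had 0.40 ± 0.09 SE (limma adjusted p = 0.0710). Fasn, the fatty acid synthase gene that uses the malonyl-CoA of Acaca, had -0.14 ± 0.04 SE (limma adjusted p = 0.0988). Its Dp1Rhr arrays all lay below control, as in 1.70% of all genes. The Dp1Rhr arrays of Prkab1 all lay above control, as in 1.82% of all genes.

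Around pyruvate carboxylase 0 of 22 genes passed and the median was 0.032, with the malic enzyme gene Me2 at 0.15 ± 0.05 SE and the pyruvate dehydrogenase kinase gene Pdk1 at 0.14 ± 0.05 SE (limma adjusted p = 0.163 and 0.169). Lipoate is attached to its enzymes by a system of its own, much as biotin is by Hlcs. None of the 8 lipoate genes passed (0 of 8, median 0.036), and the lipoyl transferase gene Lipt2 had 0.16 ± 0.04 SE (limma adjusted p = 0.106). Pantothenate enters cells through the same transporter as biotin, and of the 9 genes from pantothenate to coenzyme A 0 passed, with Coasy at 0.11 ± 0.05 SE and Pank3 at -0.056 ± 0.036 SE (limma adjusted p = 0.349 and 0.537). At an unadjusted p of 0.05, the 5 lists without a call had 2 of 12 genes below it for leucine, 7 of 20 for fatty acid synthesis, 3 of 22 for pyruvate, 2 of 8 for lipoate and 0 of 9 for pantothenate, against 15.0% of all genes.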

How the data were processed

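Biotin-labelled cDNA from hippocampal RNA was hybridised to Affymetrix Mouse Gene 1.0 ST arrays, 1 per mouse, in 5 Dp1Rhr and 5 control mice, per the labels. The authors deposited log2 values made with RMA, which corrects background, quantile normalizes arrays and summarises probe sets, so a shift shared by every gene is removed. The submitters' processing notes name RMA, limma and mm10. Sources used here do not give the RMA version or the set of arrays normalized together. The number of arrays limits the precision. The labels call the samples biological replicates.

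Of 35556 probe sets, 21789 had 1 gene symbol, 1621 several and 12146 were not listed in the platform annotation. Only the first kind was used, and for 999 genes with more than 1 the brightest was taken. Symbols and coordinates came from RefSeq (GRCm38) through gene identifiers, which matched 21698 probe sets.

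Groups were compared with limma 3.58.1 (R 4.3.3; lmFit, eBayes, two-sided, Benjamini-Hochberg over 19938 genes). FCROS was written anew here, and the study's own run was not repeated. It was an alternative only, since it calls fixed tails of a rank distribution whether or not anything changed. On simulated arrays with nothing changed it therefore called 1093 genes of 19938, and limma called 0. Each gene was simulated on its own, so these counts do not cover shifts shared by many genes. Correlations used permutation tests with 100000 resamples in scipy 1.17.1 (exact for 8 arrays). The choroid plexus score was the mean of 15 z-scored marker genes.

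The 10 genes, the pathway and marker lists, the tests and the naming rule were chosen with earlier results of these data known. Named were the 10 genes, list genes past the threshold (else the smallest 2 p-values of a list), the 5 genes most like Hlcs, and its neighbours and extremes in the segment. Mcee, Aldh6a1, Fasn, first-step genes of branched-chain breakdown and the genes beside Hlcs in the order of differences were named after their values were seen. Alternatives were a replicate block, single arrays or control replicates 2 and 3 left out, renormalization, array centring, a signal filter at the 40th percentile, other uses of probe sets, eBayes with trend and robust, array weights, the choroid plexus score and FCROS. For the pathway lists, leaving out single arrays, the block and the score were added after the data were seen.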

Additional observations from a re-analysis of the deposited data

Results flagged for a closer look

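Among the 20 sets of 5 arrays formed by the 10 genes in the 2 groups, 1 held an array far from the others. In Pcca, control replicate 1 read 8.71 while the next highest control read 8.65 and the lowest 8.63, so its gap to the nearest array was 0.812 of the range of the group, above the limit of 0.71 for 5 arrays. Chance alone flags about 1 in 20 such sets. Without this array the Pcca difference was 0.17 and did not pass (limma adjusted p = 0.115).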

How the results depend on the processing

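The Hlcs difference (0.45) ran from 0.43 to 0.50 over 20 alternatives, and Hlcs minus its substrates (0.39) from 0.35 to 0.48 over 17. The count of 2-copy partners past the threshold, 0, was 0 to 1 with single arrays left out, 1 with array weights (Pcca, adjusted p = 0.0458) and 2 with FCROS. It was 0 in the other alternatives, the replicate block included. Pcx ran from -0.032 to 0.016 with single arrays left out, and Mccc1 turned to -0.056 without control replicates 2 and 3 and to -0.15 with the choroid plexus score. The other 7 partners kept their sign in every alternative run. The pathway count of 3 was 0 to 5 with single arrays left out and 0 with the replicate block, without control replicates 2 and 3 or with the choroid plexus score. The block removed the calls of Tcn2, Mmut and Hibch (adjusted p = 0.134 for each). Replicate numbers did not pair the samples: deviations from the group means of same-numbered mice correlated at 0.12, -0.33, -0.34, -0.083 and 0.069, and 1 of 10 arrays was most like its own number. Fewer degrees of freedom remain in the block fit. For Mccc1 with Mccc2, r was -0.28 without control replicates 2 and 3, and for Acaca with Acacb it was 0.68 with group means subtracted. The cause of these changes was not tested.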
